A study of Mus musculus with 6 samples.

Results

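Synaptic vesicle and SNARE genes were examined in the RNA of mouse taste cells at 2 ages. The members were taken by their symbols: synaptotagmins (Syt), numbered Snap genes other than Snap25, syntaxins (Stx), VAMPs (Vamp), synapsins (Syn), complexins (Cplx) and the transporter families Slc17a and Slc18a. This rule found 62 of the 23361 genes in the table. Taste cells had been harvested from the circumvallate and foliate (CV/Fol) papillae of C57BL/6 mice after an enzyme solution had been injected under the lingual epithelium. The epithelium was then peeled off, and the cells were drawn from the papillae by gentle suction into a capillary pipette. The 2 month group was made of 3 libraries with cells pooled from 4 mice each, and the 6 month group of 3 libraries with cells pooled from 3 mice each. The labels give ages of 2 and 6 months, although the design text gives the ages once as 3 and 6 months. The labels give no transgene, treatment or sex for either group and no sort by cell type, so each library can mix all kinds of cell harvested from the papillae. Cells of the 2 month group are called younger and those of the 6 month group older below. Each gene has 1 FPKM value per age (fragments per kilobase of transcript, scaled to the number of mapped fragments), which the authors made over the 3 libraries of that age. From these values no spread between pools can be given and no test could be made, and the depth of the libraries is unknown. The p-values of the authors' own comparison over the libraries were not used here, so every difference below is one between 2 values, given without a replicate check.

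SNARE proteins drive the fusion of vesicles with their target membranes. A VAMP on the vesicle zips together with a syntaxin and a SNAP-25 type protein on the target membrane, and each step of membrane traffic uses its own set. In neurons and endocrine cells, synaptotagmins sense the calcium signal, complexins hold the assembled SNAREs ready, synapsins tether the vesicle pool, and Slc17 and Slc18 transporters fill vesicles with transmitter. In taste buds, type III cells form classical synapses with nerve fibres and contain SNAP-25, while type II cells release ATP through CALHM channels and not from synaptic vesicles. The rule by symbol also brought in genes of other function, namely Snap91, which encodes the clathrin assembly protein AP180, and Slc17a1 to Slc17a5, which encode phosphate, urate and sialic acid transporters.

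The genes of general membrane traffic dominated the list. Most genes of the neuronal vesicle had a mean under 1 FPKM, but Vamp2 had 47.0, Cplx2 8.10, Stx1a 4.87 and Vamp1 4.29 FPKM. A gene is called expressed where the mean of both ages reached 1 FPKM, which held for 32 of the 62 genes, or 51.6%, and for 54.2% of all genes in the table. A further 16 genes lay between 0.1 and 1 FPKM, 7 had a value above 0 but under 0.1 FPKM, and 7 were listed at 0 at both ages. The 62 values summed to 721 FPKM in the younger and 700.4 FPKM in the older cells. VAMPs made up 45.9% of that sum at 2 months and 46.2% at 6 months, and syntaxins 40.6% and 40.5%. Synaptotagmins, although the largest family with 17 members, made up 2.14% and 2.30%. Complexins held 1.18% and 1.31%, synapsins 0.259% and 0.301%, and the Slc18a transporters 0.209% and 0.1996%.

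**Figure D1:**
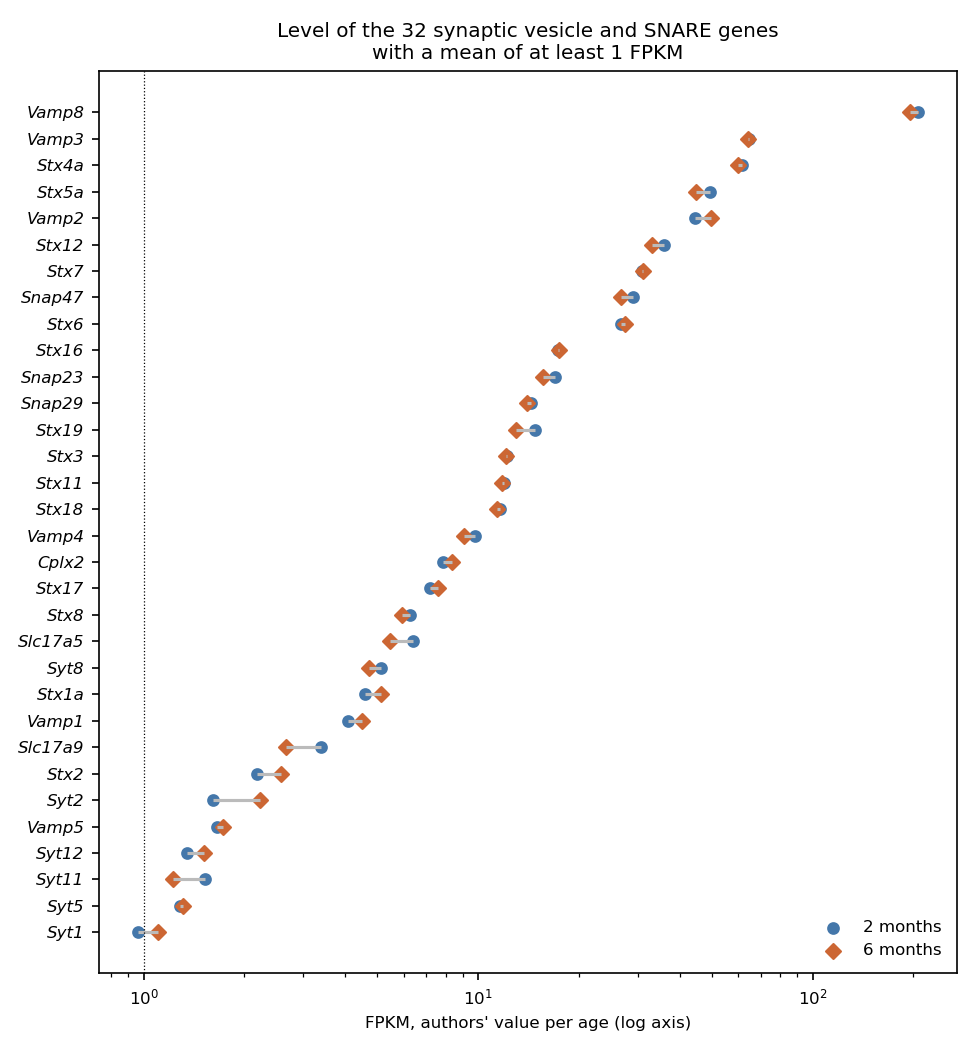
FPKM of the 32 expressed synaptic vesicle and SNARE genes, on a log axis, with a circle for the authors' value at 2 months and a diamond for that at 6 months. Vamp8 stands above the rest at 206 and 195 FPKM, and the order of the genes shifts by at most 2 places between the ages.

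Levels differed between genes far more than between ages. Across the 32 genes the rank correlation (Spearman) of the 2 ages was 0.997, a description across genes that share the same libraries. Ranked among themselves, 17 of the 32 had the same rank at both ages and the largest shift was 2 places. Their median level was 10.7 FPKM in the younger and 10.2 FPKM in the older cells, beside 11.8 and 11.7 FPKM for all expressed genes.

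The log2 difference is the older minus the younger value of log2(FPKM + 1), a scale that understates the change of weakly expressed genes. Of the 32 genes, 0 were at least 1.5-fold higher and 0 at least 1.5-fold lower at 6 months. Among all 12652 expressed genes, 1.05% were at least 1.5-fold higher and 1.72% at least 1.5-fold lower, so that a count of 0 among 32 genes is near this background. The median log2 difference was -0.01 in the list and -0.01 over all genes, with quartiles of -0.11 and 0.07 in the list and -0.10 and 0.08 over all genes. A higher value at 6 months was seen for 14 of the 32 genes and for 46.3% of all genes. These directions depend on the scaling, since giving both ages the same upper quartile made 20 of the 32 genes and 57.7% of all genes higher. A log2 difference smaller than 0.2 in either direction, a band chosen after the values were seen, held 30 of the 32 genes and 81.9% of all genes. The exceptions were Syt2 and Slc17a9.

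**Figure D2:**
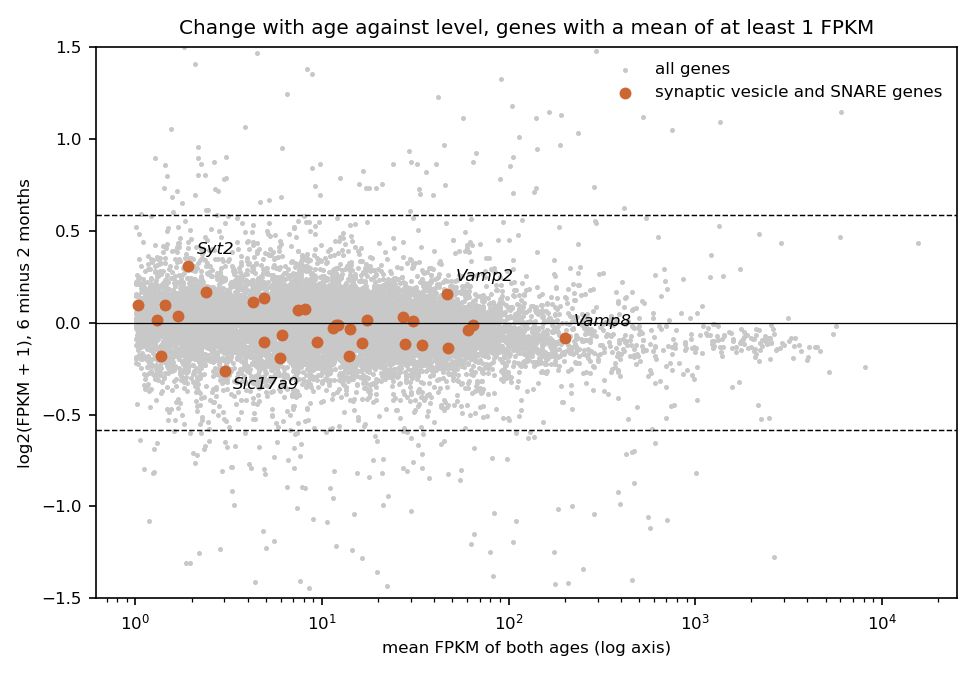
Difference in log2(FPKM + 1), 6 minus 2 months, against the mean FPKM of both ages on a log axis, for all 12652 expressed genes (grey; 141 lie outside the axis limits of 1.5) and for the 32 synaptic vesicle and SNARE genes (orange). Dashed lines mark 1.5-fold, and the orange points lie between -0.26 (Slc17a9) and 0.31 (Syt2).

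The VAMPs, the vesicle-side SNAREs, held the most abundant member. Vamp8, which serves endosomal fusion and regulated secretion in epithelial and blood cells, had 206 FPKM in the younger and 195 FPKM in the older cells, a log2 difference of -0.08. It alone made up 28.6% of the summed level of the list at 2 months and 27.8% at 6 months. Vamp3 (cellubrevin), the VAMP of recycling endosomes, had 64.4 and 63.9 FPKM. Vamp2, the main synaptobrevin of neuronal and endocrine vesicles, had 44.3 FPKM in the younger and 49.6 FPKM in the older cells, a log2 difference of 0.16. Vamp2 was thereby 1 of the 5 most abundant members, and a change at least as far from 0 was seen in 26.7% of all genes over 20 FPKM. Vamp1, the other synaptobrevin, was weaker, with 4.09 and 4.49 FPKM and a log2 difference of 0.11. Vamp4, which works at the trans-Golgi network, had 9.80 and 9.05 FPKM. Vamp5, known from muscle, had 1.65 and 1.73 FPKM. Vamp7 was listed at 0 at both ages. GENCODE places the Vamp7 gene of GRCm38 on a scaffold outside the assembled chromosomes, and the part of this in the listed 0 was not tested. A listed 0 can also be a failed estimate, since Krt13, an abundant keratin of tongue epithelium, is listed at 0 in the same table.

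Vamp8 and Vamp5 are neighbours on chromosome 6 (GRCm38), with no other protein-coding gene of RefSeq between them. All positions given here are those of RefSeq on GRCm38.p6. Vamp5 lies at chr6:72368049-72380468 and Vamp8 at chr6:72385221-72390667, both on the minus strand. Vamp8 had 125 times the FPKM of Vamp5 at 2 months and 113 times at 6 months. The bases from 250 to 51 before the start of each gene (RefSeq, GRCm38.p6, minus strand) are shown because they differ in the dinucleotide CG, printed in capitals, between 2 neighbours of very different level. The stretch of Vamp8 is chr6:72390718-72390917 and holds 2 CG, and that of Vamp5 is chr6:72380519-72380718 and holds 13.
Vamp8: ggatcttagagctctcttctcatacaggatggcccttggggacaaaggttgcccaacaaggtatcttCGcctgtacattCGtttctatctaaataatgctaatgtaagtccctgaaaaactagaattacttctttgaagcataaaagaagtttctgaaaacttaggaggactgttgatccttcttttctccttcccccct
Vamp5: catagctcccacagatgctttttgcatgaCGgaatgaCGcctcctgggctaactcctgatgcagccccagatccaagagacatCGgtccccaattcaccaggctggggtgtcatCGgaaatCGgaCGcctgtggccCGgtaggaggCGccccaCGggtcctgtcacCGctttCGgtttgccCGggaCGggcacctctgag

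Of these neighbours, the one with fewer CG was the far more abundant gene. Promoter windows from 250 bases before to 50 after the start were matched for 47 of the 62 members and for 16297 genes of the table, taking for each gene the window with the most CG. At least 10 CG were found in 21 of the 27 matched expressed members, or 77.8%, and in 85.1% of all such genes. The share was 15 of 20, or 75%, in the members under 1 FPKM, against 28.8% of all genes under 1 FPKM. The share was thus about the same in the members under 1 FPKM as in the expressed ones, in small counts that were not tested. Those under 1 FPKM include Slc17a1, Slc17a2, Slc17a3 and Slc17a6, which are listed at 0 and have fewer than 10 CG. The expressed members with fewer than 10 CG were Vamp8 with 5, Stx19 with 3, Stx3 with 8, Cplx2 with 9, Syt8 with 3 and Syt1 with 8. These counts describe the sequence and were not tied to transcription by any measurement here.

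Syntaxins of the plasma membrane, the target-side partners in exocytosis, were led by the form used outside neurons. Stx4a, the syntaxin of basolateral and constitutive exocytosis in epithelia, had 61.4 FPKM in the younger and 59.7 FPKM in the older cells. Stx3, the syntaxin of apical membranes, had 12.2 and 12.1 FPKM. Stx11, known for granule release in immune cells, had 11.9 and 11.8 FPKM. Stx19, an epithelial syntaxin without a membrane anchor, had 14.8 FPKM in the younger and 12.9 FPKM in the older cells, a log2 difference of -0.18. Stx2 (epimorphin) had 2.19 and 2.58 FPKM, a log2 difference of 0.17. Stx1a, a neuronal syntaxin, had 4.60 and 5.14 FPKM, a log2 difference of 0.13. Stx4a was therefore 13.4 times as abundant as Stx1a at 2 months and 11.6 times at 6 months. In this group, 2 of the 6 expressed genes were higher in the older cells with a median log2 difference of -0.01, but 5 of the 6 with a median of 0.03 once the upper quartiles were equal.

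All 8 syntaxins of the endosome, Golgi and endoplasmic reticulum (ER) passed 1 FPKM. Stx5a, which serves traffic from the ER to the Golgi, had 49.3 FPKM in the younger and 44.8 FPKM in the older cells, a log2 difference of -0.14. The endosomal syntaxins Stx12 and Stx7 had 36.1 and 30.8 FPKM in the younger and 33.0 and 31.0 FPKM in the older cells. Stx6 and Stx16, which act at the trans-Golgi network, had 26.8 and 17.3 FPKM in the younger and 27.4 and 17.5 FPKM in the older cells. Stx8, also endosomal, had 6.25 and 5.92 FPKM, and Stx17, needed for the fusion of autophagosomes with lysosomes, had 7.20 and 7.60 FPKM. Stx18 of the ER had 11.6 and 11.4 FPKM, with 19.1% of its exon bases overlapping exons of Nsg1 on the other strand. Without knowledge of strand in the counting, reads of such a stretch cannot be told apart. In this group, 4 of the 8 genes were higher in the older cells, with a range from -0.14 (Stx5a) to 0.07 (Stx17) and a median log2 difference of -0.01, which became 0.03 with equal upper quartiles.

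The widely expressed relatives of SNAP-25 each had a higher level than Snap25. Snap47 had 29.0 FPKM in the younger and 26.6 FPKM in the older cells, a log2 difference of -0.12. Snap23, the widely expressed counterpart of SNAP-25, had 17.0 and 15.7 FPKM, a log2 difference of -0.11. Snap29, which acts on intracellular membranes, had 14.3 and 14.0 FPKM, a log2 difference of -0.03. All of these 3 genes were lower at 6 months, but Snap29 was higher once both ages had the same upper quartile. Snap25, which marks type III cells and was left out of the list, had 7.78 and 8.71 FPKM, a log2 difference of 0.15. Snap91 had 0.140 and 0.137 FPKM.

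**Figure D3:**
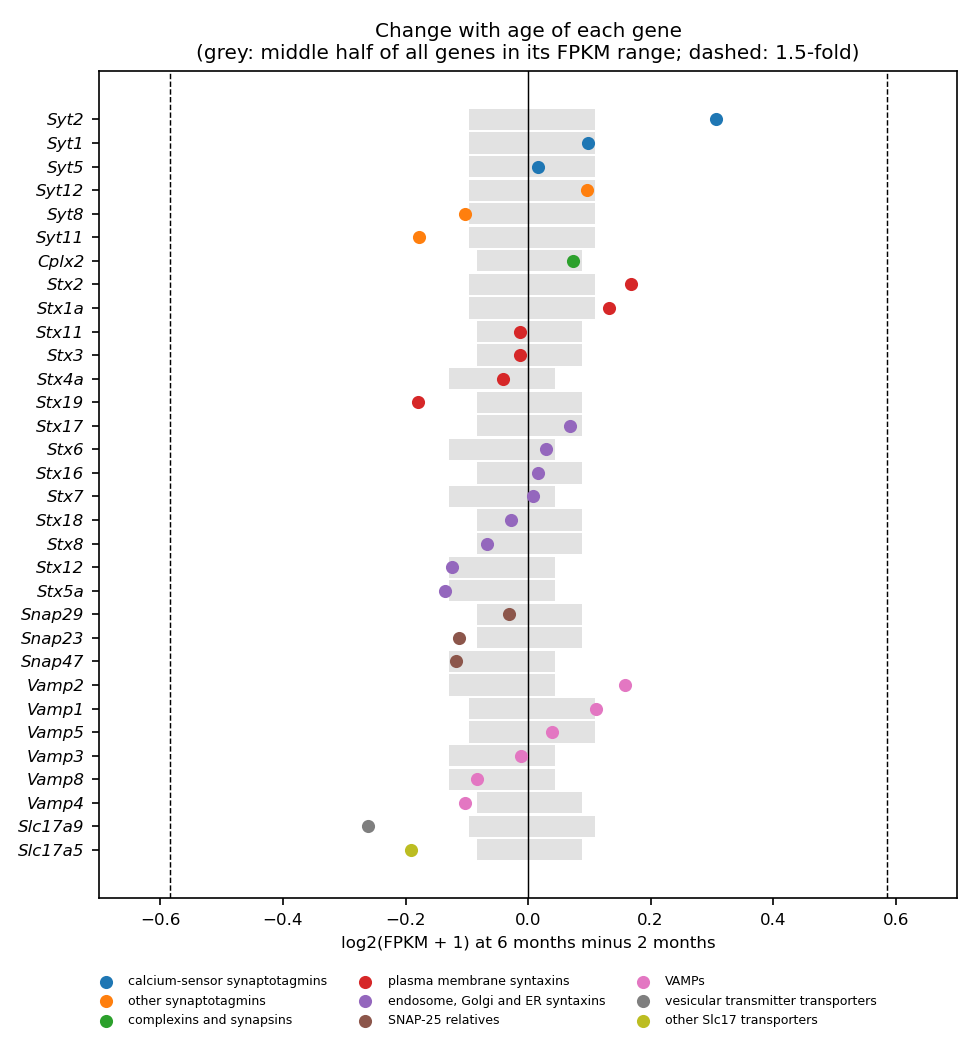
Difference in log2(FPKM + 1), 6 minus 2 months, for each of the 32 expressed genes, coloured by role. Grey bars span the lower to the upper quartile of all genes in the same range of FPKM (1 to 5, 5 to 20 or over 20), dashed lines mark 1.5-fold, and 0 of the 32 points reach a dashed line.

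Among the synaptotagmins, the calcium sensors of fast release were present at a low level. Syt2, a fast sensor found in neurons with high rates of release, had 1.61 FPKM in the younger and 2.23 FPKM in the older cells. Its log2 difference of 0.31 was the largest of the list, and 9.58% of all genes with a mean between 1 and 5 FPKM had a change at least as far from 0. Syt2 lies at chr1:134646534-134753149. Syt1, the sensor of most forebrain synapses, had 0.963 and 1.10 FPKM, a log2 difference of 0.10, and Syt5 had 1.28 and 1.31 FPKM. The other calcium-binding forms were under 1 FPKM. Syt9 had 0.827 and 0.798 FPKM, Syt7, a sensor of slower release, 0.757 and 0.704 FPKM, and Syt3 0.631 and 0.795 FPKM. Syt10 and Syt6 were under 0.1 FPKM in mean.

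Of the synaptotagmins not known as calcium sensors, Syt8 was the most abundant of the whole family, with 5.13 FPKM in the younger and 4.70 FPKM in the older cells. Syt12 had 1.35 and 1.51 FPKM, and 13.0% of its exon bases overlap A930001C03Rik on the other strand. Syt11 had 1.52 and 1.23 FPKM, a log2 difference of -0.18. Syt16, Syt15, Syt14 and Syt4 lay between 0.1 and 1 FPKM. Syt4 had 0.157 and 0.323 FPKM, and 14.5% of its exon bases overlap Gm26658 on the other strand. Syt17 and Syt13 were under 0.1 FPKM. Over all 17 synaptotagmins, 6 reached a mean of 1 FPKM.

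Complexins and synapsins were represented by 1 expressed gene. Cplx2, a complexin of neurons and of many secretory cells, had 7.87 FPKM in the younger and 8.33 FPKM in the older cells, a log2 difference of 0.07. Cplx1, the other common neuronal complexin, had 0.617 and 0.794 FPKM. Cplx3, known from ribbon synapses of the retina, had a mean under 0.1 FPKM, and Cplx4 was listed at 0. Syn3 had 0.962 and 1.03 FPKM, just under the limit of 1 FPKM in mean, and Syt1 was the member just above it. Syn1 and Syn2 had 0.558 and 0.349 FPKM in the younger and 0.620 and 0.459 FPKM in the older cells.

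Of the transporters that load transmitter into vesicles, the one for ATP was the most abundant. Slc17a9 (VNUT), at chr2:180724576-180742280, had 3.38 FPKM in the younger and 2.66 FPKM in the older cells. Its log2 difference of -0.26 was the lowest of the list, and 13.2% of all genes between 1 and 5 FPKM had a change at least as far from 0. The vesicular monoamine transporters Slc18a1 (VMAT1) and Slc18a2 (VMAT2) had 0.981 and 0.529 FPKM in the younger and 0.893 and 0.490 FPKM in the older cells. Slc18a3, which loads acetylcholine, was listed at 0 at 2 months and had 0.0149 FPKM at 6 months. The vesicular glutamate transporters were listed at low values or at 0, where Slc17a8 had 0.159 and 0.104 FPKM, Slc17a7 0.0227 and 0.0348 FPKM, and Slc17a6 was listed at 0. Slc17a5 (sialin), a lysosomal transporter of sialic acid, had 6.37 and 5.46 FPKM, a log2 difference of -0.19. Slc17a1 to Slc17a4, which adjoin each other on chromosome 13 between 23806941 and 23915009, were all listed at 0 at both ages.

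Members were also set side by side by where they are used. A list of 22 neuronal-type genes included Syt1, Syt2, Syt5, Syt9, the synapsins, the complexins, Vamp1, Vamp2, Stx1a, Snap91 and the vesicular transporters of glutamate, monoamines and acetylcholine. A list of 19 widely used SNAREs held Snap23, Snap29, Snap47, the VAMPs 3, 4, 5, 7 and 8, Stx2, Stx3, Stx4a and the endosome, Golgi and ER syntaxins. Of the 7 expressed neuronal-type genes, 7 were higher in the older cells, with a median log2 difference of 0.11 and a range from 0.02 (Syt5) to 0.31 (Syt2). The count of 7 of 7 depends on the limit of 1 FPKM, since Syt1 reached it in mean only through its value in the older cells, while Slc18a1 and Syt9, which were lower, lay just under it. It also depends on which genes the list holds, a choice made with earlier results known. Slc17a9, which loads ATP into vesicles, and Syt11 are not in it and were lower, with log2 differences of -0.26 and -0.18. Among all genes, 52.1% of those between 1 and 5 FPKM, 50.8% of those between 5 and 20 FPKM and 36.7% of those over 20 FPKM were higher at 6 months. Of the 18 widely used SNAREs above 1 FPKM, 6 were higher, with a median of -0.03, but 11 of the 18 were higher with the same upper quartile. Over all 22 neuronal-type genes, 15 had a higher value and 5 a lower value, while Slc17a6 and Cplx4 were listed at 0. Without a filter, 45.2% of the members and 38.5% of all genes were higher, with genes listed at 0 counted as not higher. The median log2 difference over the 22 neuronal-type genes was 0.035, well below that of the 7 expressed ones. The summed level of the neuronal-type list was 70.2 FPKM in the younger and 78.1 FPKM in the older cells, and 25.8 and 28.5 FPKM without Vamp2. That of the widely used list was 603.9 and 578.8 FPKM, and 397 and 384 FPKM without Vamp8. With 1 value per age, neither difference could be set against the spread between pools.

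**Figure D4:**
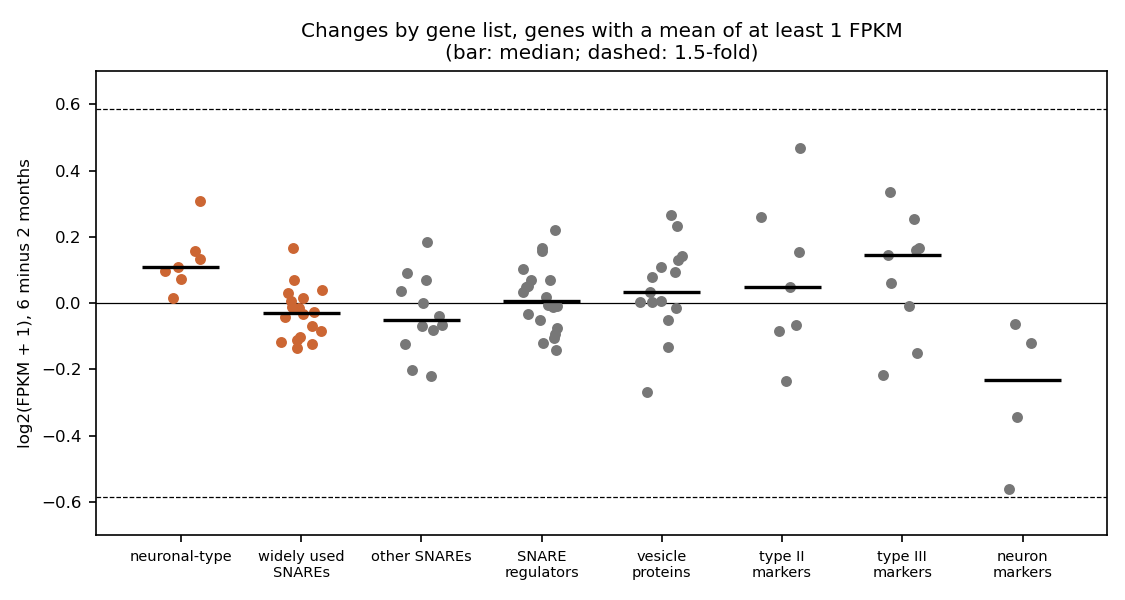
Difference in log2(FPKM + 1), 6 minus 2 months, of each expressed gene in 8 gene lists, with the list median as a bar and 1.5-fold as dashed lines. The 7 neuronal-type genes that reached 1 FPKM, Syt1 only through its value at 6 months, lie above 0 with a median of 0.11, the 18 widely used SNAREs scatter around -0.03, the 9 type III markers have a median of 0.15 and the 4 neuron markers one of -0.23.

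Markers of the cells that could hold these RNAs were read beside the members. In these mixed cells, fewer cells of a type and less RNA per cell cannot be told apart. Of 10 type III markers, 9 were expressed and 6 of these, Snap25 among them, were higher in the older cells, with a median log2 difference of 0.15. Their summed level was 52.1 FPKM in the younger and 54.8 FPKM in the older cells. The most abundant were the proton channel Otop1, with 14.4 and 12.2 FPKM, and Pkd2l1, with 12.4 and 14.0 FPKM. The serotonin enzyme Tph1 was under 0.01 FPKM at both ages. Of the 7 type II markers in the table, 4 were higher, with a median of 0.05 and summed levels of 363 and 348 FPKM, led by Gng13 with 148 and 126 FPKM and Gnat3 with 84.7 and 79.9 FPKM. Of 4 type I markers, 2 were above 1 FPKM, Entpd2 with 66.1 and 57.7 FPKM and Rom1 with 2.67 and 3.67 FPKM, with a list sum of 69.7 and 62.6 FPKM and a median log2 difference of 0.08.

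Markers of neurons and nerve fibres were mostly weak. Of 13 neuron markers, 4 were expressed and all 4 were lower in the older cells, with a median log2 difference of -0.23. Their list summed to 23.1 FPKM in the younger and 16.9 FPKM in the older cells. Tubb3 was the most abundant with 15.0 and 9.83 FPKM, followed by Ntrk2 with 3.41 and 3.22 FPKM, and Scn10a was listed at 0. Over all 13 markers, 5 had a higher and 6 a lower value. Of 6 Schwann cell markers, 3 passed 1 FPKM, led by Mbp with 16.2 and 16.0 FPKM and Pmp22 with 5.89 and 4.22 FPKM, with list sums of 25.3 and 22.4 FPKM. All 3 were lower with a median of -0.40, but with equal upper quartiles 2 of the 3 were. The part of any of these cell types in the levels of the vesicle genes was not tested.

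Larger differences were found in the markers of gland cells, skeletal muscle and keratinocytes, but not in those of leukocytes and mast cells. All 4 gland cell markers above 1 FPKM were lower, with a median log2 difference of -0.996, list sums of 403 and 139 FPKM, and Dmbt1 and Lipf past 1.5-fold with log2 differences of -1.41 and -2.43. All 6 skeletal muscle markers above 1 FPKM were higher, with a median of 0.78 and list sums of 13.0 and 26.02 FPKM. Of these, Tnnc2 (2.14 and 5.57 FPKM), Mb, Acta1, Tnnt3 and Ckm passed 1.5-fold, and Mylpf had 3.76 and 5.25 FPKM. Among the keratinocyte markers, 4 of the 5 above 1 FPKM were lower, with a median of -0.59, leaving out Krt4, and 5 of 6 with a median of -0.70 with it. Krt5, of basal keratinocytes, had 2180 and 1962 FPKM, a log2 difference of -0.15, and Krt14, its partner, was the higher one, with 1287 and 1533 FPKM and a log2 difference of 0.25. Krt10, Lor and Ivl passed 1.5-fold, with log2 differences of -1.08, -0.82 and -0.59 (Ivl no longer with equal upper quartiles), while Krt4 had 7334 FPKM in the younger cells and a listed 0 in the older, which can be a failed estimate and leaves the list sum without meaning. The leukocyte and mast cell list had 3 of 8 genes above 1 FPKM, a median of 0.06 and sums of 35.1 and 34.3 FPKM. Kit, with 22.7 and 24.4 FPKM, made up most of these sums, followed by Cd68 with 10.05 and 7.15 FPKM. The mast cell markers Cpa3, Mcpt4 and Tpsb2 were each under 0.1 FPKM in mean. Which cells held the Kit RNA was not tested. The share of Vamp8 and the other epithelial and secretory SNAREs that came from gland cells or keratinocytes was not tested.

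The partners of these genes in vesicle traffic were read in the same way. Of 28 SNARE regulators in the table, such as the Munc18 and Munc13 proteins and the disassembly factors NSF and SNAP, 20 were expressed, 10 were higher and 10 lower in the older cells, and the median log2 difference was 0.01, against 14 higher and 6 lower with equal upper quartiles. The most abundant were Napa (alpha-SNAP), with 60.8 and 57.7 FPKM, and Stxbp2, the Munc18 form of epithelial and blood cells, with 45.6 and 45.2 FPKM. All 12 other SNAREs were above 1 FPKM, with 5 higher, 7 lower and a median of -0.05 (6 and 6 with equal upper quartiles), led by Use1 with 108.8 and 102.7 FPKM and Vti1b with 62.1 and 60.4 FPKM.

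Of 29 vesicle membrane proteins, small GTPases and active zone proteins, 15 were expressed, 11 of them higher and 4 lower, with a median log2 difference of 0.03. Sytl1, a synaptotagmin-like effector of Rab27, had 144.9 and 154.8 FPKM, and Syngr2, a vesicle protein found outside neurons, 86.6 and 86.7 FPKM. In the list of 21 genes that retrieve vesicle membrane, 18 were above 1 FPKM, 11 higher and 7 lower, with a median of 0.01. The clathrin light chains Cltb and Clta led it with 181 and 178 FPKM in the younger and 175 and 157 FPKM in the older cells. In these 4 lists, 0 genes passed 1.5-fold in either direction. Among all expressed genes, 1.05% passed it higher and 1.72% lower, so this count is near the background.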

How the data were processed

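Poly-A RNA was sequenced in 3 libraries of pooled taste cells per age. Per the study's methods and the submitters' processing notes, reads were mapped to GRCm38/mm10 with TopHat2 (2.0.7), and RefSeq genes were quantified with Cufflinks (2.1.1) and compared with Cuffdiff. The authors deposited 1 FPKM value per gene and age, over the 3 libraries of that age. How Cuffdiff scaled the libraries is not given in the sources used here. A further column holds p-values of the authors' own comparison and was not used, so no adjusted value is given. The columns named B and S were assigned to 6 and 2 months by the sample titles.

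Differences were taken on the log2(FPKM + 1) scale among expressed genes (mean of both ages 1 FPKM or more), and 1.5-fold was the limit for a called gene. Of these genes, 79 are listed at 0 at 1 age. The members and lists were chosen with earlier results of these data known. All members above 1 FPKM, and in the other lists the 2 most abundant genes and those past 1.5-fold, were named. Single values of a few listed genes are not reported here. Positions and promoters came from RefSeq (GRCm38.p6) by symbol, matching 62 members, and exon overlaps from GENCODE vM21 (GRCm38). The counting was checked on simulated data. Python 3.11.15, pandas 2.3.3 and numpy 2.4.6 were used.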

Additional observations from a re-analysis of the deposited data

How the results depend on the processing

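No paired analysis was possible because each gene has 1 value per age and none per library. For the same reason no replicate was left out. The count of members past 1.5-fold was 0 in each direction under every alternative run (pseudocount 0.1, same upper quartile, 2-fold, no filter, a minimum mean of 5 FPKM, and, added after the data were seen, without genes listed at 0). A mean of at least 5 FPKM kept 21 of the 62 genes. Members higher at 6 months numbered 28 of 62 (45.2%) without a filter, beside 38.5% of all genes, and 6 of 21 (28.6%) at 5 FPKM, beside 44.2% of all genes. Their median log2 difference was 0.026 with the same upper quartile, 0 without a filter and -0.032 at 5 FPKM, while that of all genes was 0.025, 0 and -0.019. For the neuronal-type genes the median was 0.16 with the pseudocount of 0.1, 0.15 with the same upper quartile, 0.035 without a filter and 0.12 at 5 FPKM, with 15 of 22 higher without a filter and 2 of 2 at 5 FPKM. For the widely used SNAREs it was 0.0099 with the same upper quartile and -0.036 at 5 FPKM, and 11 of 18 were then higher in the first case. The same upper quartile (6 month values times 1.03) turned the sign of Snap29, Stx11, Stx18, Stx3, Stx4a and Vamp3, whose log2 differences were all smaller than 0.05. Since this scaling raises every gene, it could turn lower values only. Differences of this size cannot be told apart from the scaling.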
